A study of Mus musculus with 41 samples.

Results

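The nuclear genes of oxidative phosphorylation were taken from the deposited tables by symbol: every gene whose name begins with Nduf, Uqcr, Atp5, Cox4i, Cox5, Cox6, Cox7 or Cox8, together with Sdha, Sdhb, Sdhc, Sdhd and Cyc1, with 16 pseudogenes left out. This gave 102 of the 50769 genes in either table: 42 of complex I, 8 complex I assembly factors, 4 of complex II, 9 of complex III, 21 of complex IV and 18 of complex V. RNA was measured in bulk, from polyadenylated RNA, in B cells sorted from the spleens of mice aged 3 to 5 months. Mice were wild type (wt) or Mek1flox/flox Mek2+/- Tg+/Vav1-icre (labelled 1Mek2). In the latter, Cre is driven by the Vav1 promoter, which is active across blood cells. Alleles or Cre carried by the wild-type mice are not given in the sources used here. The sorted subsets were Plasma (B220+CD138+), Immature (B220+CD93+CD138-), MarginalZone (CD21+CD23-), Follicular (CD21+CD23+) and germinal centre (GC; GL7+FAS+). GC, Follicular and MarginalZone cells were also CD93-CD138-, and Follicular and MarginalZone cells GL7-FAS-. The gate of ABC (read here as age-associated B cells) is not given in the sources used here. Libraries labelled wt and 1Mek2 numbered 3 and 3 for Immature, ABC, MarginalZone and Plasma, and 4 and 4 for GC and Follicular, which is 20 and 20 libraries from 8 and 8 mice. 1 further Immature library, labelled 1Mek2 but named Mek1ff, was left out. The same mouse, under the same name, gave GC_wt replicate 4, labelled wt, and GC results are given with and without that library.

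Oxidative phosphorylation is carried out in the inner mitochondrial membrane. Complex I (NADH dehydrogenase) and complex II (succinate dehydrogenase) pass electrons to ubiquinone, complex III passes them on to cytochrome c, and complex IV reduces oxygen. Complexes I, III and IV pump protons, and complex V (ATP synthase) uses the resulting gradient to make ATP. All complexes but II hold subunits from both the nuclear and the mitochondrial genome. In B cells the pathway is known for its part in activation and in antibody secretion, and complex II is also an enzyme of the citrate cycle.

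Gene-span counts (reads over the whole interval from gene start to gene end, introns included) totalled 7883989 to 34925667 per library, and exon reads recovered from TPM (transcript abundance scaled by transcript length, to the same sum in each library) totalled 7897848 to 29204625. The exon share (exon reads as a percent of gene-span counts) ran from 39.9% to 128.5%, and the short-transcript index (the median over 149 genes of 300 to below 1000 exonic bases minus that over 929 genes of 2500 to below 5000 bases, of log2(TPM + 1) centred on each gene's mean over libraries, with no member among these genes) ran from -1.18 to 1.66. In ABC_wt replicates 1 and 2, 49.2% and 37.8% of 7592 genes lay below 0.1 of their own median. The summed level of the B cell markers Ms4a1, Cd79a and Cd79b in CPM of exon reads was 840 to 1695 in ABC_wt against 4908 to 7870 in ABC_1Mek2, and 589 to 964 in Plasma_wt against 1666 to 1901 in Plasma_1Mek2. In the other groups it was 4614 to 9585. Of the targeted genes, Map2k1 (MEK1) was at 318 to 663 CPM of gene-span counts in ABC_wt against 148 to 256 in ABC_1Mek2 and at 267 to 320 in Follicular_wt against 196 to 255 in Follicular_1Mek2, and overlapped between labels in the other 4 subsets. In exon reads it was lower without overlap in MarginalZone alone (23.9 to 63.4 CPM in 1Mek2 against 72.1 to 245 in wt), overlapped in the other subsets, and averaged higher in ABC_1Mek2 (86.5 against 12.5). Map2k2 (MEK2) was not lower without overlap in any subset by either measure, and its mean was higher in 1Mek2 in every subset by both. In exon reads it was higher without overlap in MarginalZone (183 to 285 CPM in 1Mek2 against 54.2 to 129.6 in wt). In gene-span counts it was higher without overlap in Immature (82.4 to 91.2 CPM in 1Mek2 against 54.8 to 82.1 in wt). Libraries are therefore called by their labels.

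In TPM, the most abundant members over the 40 libraries were Cox6b1 (mean 1797), Cox4i1 (1755), Ndufb7 (1626), Ndufa3 (1421), Ndufa2 (1346) and Uqcr11 (1270). COX6B1 links the complex IV monomers, COX4I1 is its ATP-sensing regulatory subunit, and UQCR11 is a small subunit of complex III. The most abundant members of the remaining complexes were Atp5mf (1096; complex V) and Sdhb (712; the iron-sulphur subunit of complex II). The median member was at 402 TPM in complex III, 312 in complex V, 269 in complex IV, 238 in complex I and 163 in complex II. A mean of at least 10 TPM was reached by 88 members.

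Promoters of the most abundant member of each complex that holds a motif within the printed stretch are shown. Nuclear subunit genes are known targets of NRF1, GABPA (an ETS factor) and YY1. Whether the motifs bear on the differences given below was not tested. Each is the 250 bases before the annotated start from RefSeq (GRCm38.p6), 5′ to 3′ on the gene's strand. Capitals mark the NRF1 motif (with 1 free base; as in Sdha and Atp5me), CCGGAAG (ETS) or the reverse complement of the latter.
Ndufb7 (chr8:83566508-83566757, plus strand): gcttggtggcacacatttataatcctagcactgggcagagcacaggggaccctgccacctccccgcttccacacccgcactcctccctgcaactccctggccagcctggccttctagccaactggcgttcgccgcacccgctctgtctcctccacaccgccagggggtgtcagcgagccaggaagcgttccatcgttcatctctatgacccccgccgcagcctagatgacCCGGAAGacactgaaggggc
Sdha (chr13:74350241-74350490, minus strand): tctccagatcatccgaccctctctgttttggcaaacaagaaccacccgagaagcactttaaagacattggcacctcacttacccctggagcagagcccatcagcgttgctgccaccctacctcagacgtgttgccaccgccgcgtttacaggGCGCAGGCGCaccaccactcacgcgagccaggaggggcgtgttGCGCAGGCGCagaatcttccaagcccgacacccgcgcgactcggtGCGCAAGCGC
Uqcr11 (chr10:80406822-80407071, minus strand): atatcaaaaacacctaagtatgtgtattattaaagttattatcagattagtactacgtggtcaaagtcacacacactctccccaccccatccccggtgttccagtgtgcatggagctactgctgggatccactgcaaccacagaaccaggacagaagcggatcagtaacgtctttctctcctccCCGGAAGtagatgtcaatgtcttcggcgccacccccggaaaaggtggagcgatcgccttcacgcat
Cox6b1 (chr7:30626115-30626364, minus strand): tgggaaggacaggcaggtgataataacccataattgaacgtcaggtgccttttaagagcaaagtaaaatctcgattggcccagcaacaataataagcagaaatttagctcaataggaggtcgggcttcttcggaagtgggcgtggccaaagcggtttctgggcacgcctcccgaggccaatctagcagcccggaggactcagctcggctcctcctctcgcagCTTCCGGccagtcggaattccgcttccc
Atp5me (chr5:108434400-108434649, minus strand): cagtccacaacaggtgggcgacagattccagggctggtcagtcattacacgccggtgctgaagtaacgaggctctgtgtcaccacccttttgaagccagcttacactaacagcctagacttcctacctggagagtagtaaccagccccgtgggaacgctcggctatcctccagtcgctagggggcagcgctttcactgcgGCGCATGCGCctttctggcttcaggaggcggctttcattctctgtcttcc
Of the 102 members, 77 were matched in the RefSeq table, Atp5me under its older symbol Atp5k. In windows of 300 bases (250 before to 50 after the start), both strands searched, the NRF1 motif with its free base was present in 19 of 77 matched members, or 24.7%, against 5.19% of all 27025 genes. Its stricter form, with that base fixed as in Atp5me and so contained in it, was in 9.09% against 1.07%, CCGGAAG in 23.4% against 9.93% and AAGATGGCG (YY1) in 10.4% against 1.64%. At least 1 of these motifs was in 49.4% of matched members and 15.1% of all genes. These are letter matches, not measured binding.

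Summed by complex, TPM had a median over libraries of 13195 for complex I and 1150 for complex II, and varied widely between libraries. The complex I sum ran from 5954 in Plasma_wt replicate 1 to 34195 in ABC_1Mek2 replicate 2, and the complex V sum from 3561 to 14187. Complex II ran from 218 in MarginalZone_wt replicate 3 to 2205 in GC_1Mek2 replicate 3. Plasma groups had the lowest mean sums of complex I, 7221 ± 1268 (SD, n = 3) in wt and 9658 ± 2479 (n = 3) in 1Mek2. These sums are shares of a fixed total. Summed Plasma markers were 9300 to 18701 CPM of exon reads in Plasma libraries, against 64.0 to 326 in Follicular_wt. Their part in the sums was not tested. With TMM-scaled counts, the median log2 difference of members in Plasma against Follicular (wt) was small, -0.38 to -0.08 on leaving out each library.

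**Figure D1:**
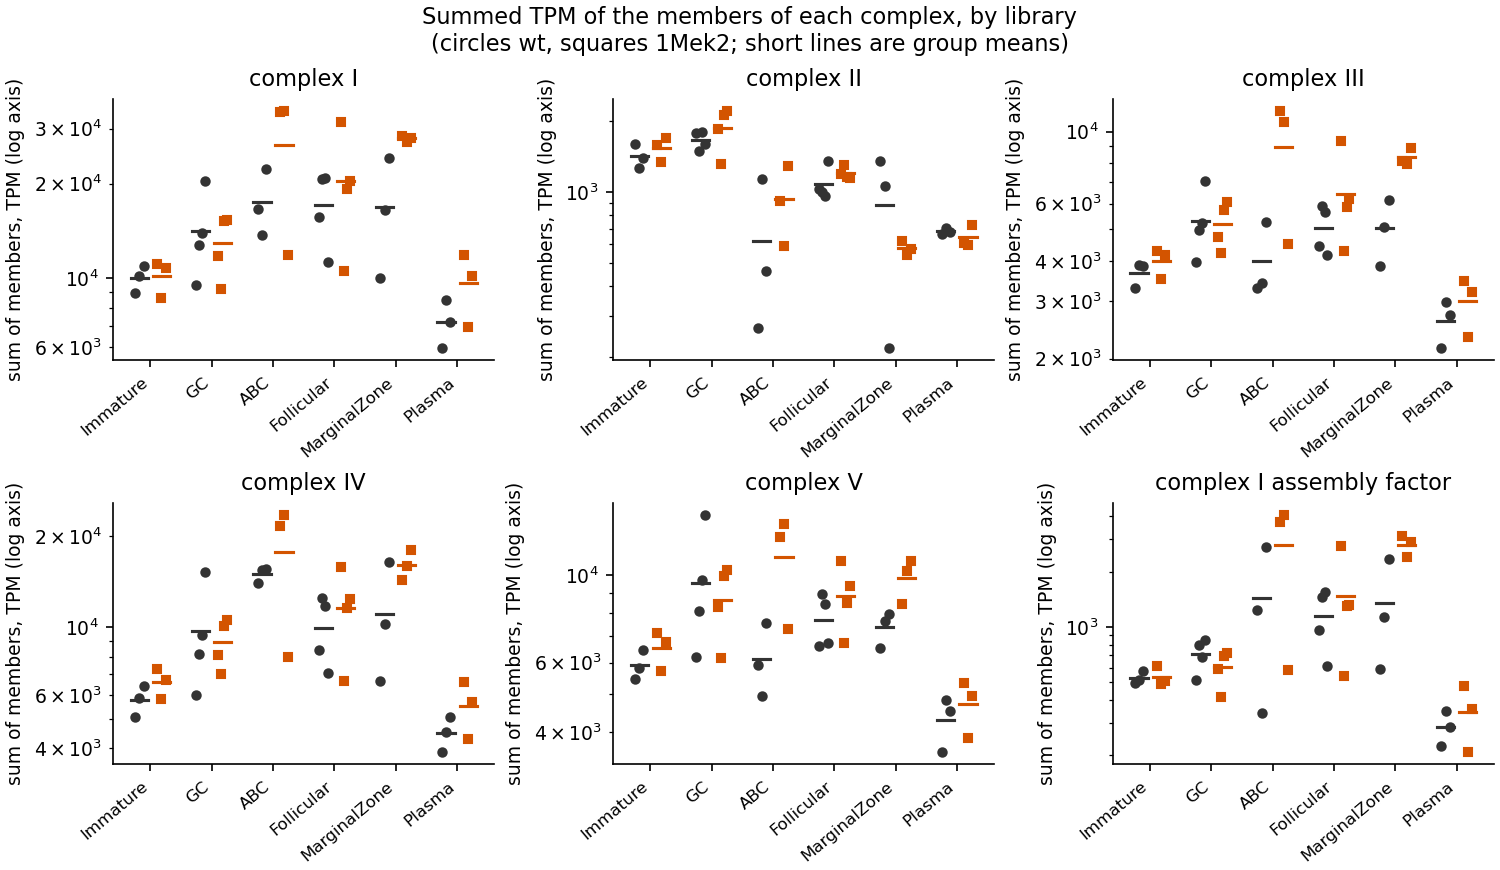
Summed TPM (log axis) of the members of each complex in every library, by subset and label. Each point is 1 library and short lines are group means. TPM has the same total in each library, so the sums are shares of that total. Plasma libraries (5954 to 11856) have the lowest mean complex I sums and overlap Immature libraries (8645 to 11059), 2 ABC_1Mek2 libraries have the highest single sums (33985 and 34195; the third is at 11829), and the 3 MarginalZone_1Mek2 libraries (27267 to 28407) sit above the 3 wt libraries (9967 to 24126).

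Complexes I and II did not move in step across libraries. The ratio of their sums was 5.35 to 12.8 in GC_wt, 6.35 to 6.98 in Immature_1Mek2 and 8.96 to 12.01 in Plasma_wt, but 12.1 to 62.0 in ABC_wt and 45.7 to 50.2 in MarginalZone_1Mek2. In MarginalZone_wt it was 7.35, 15.6 and 110.7. Immature and GC libraries stood at the low end, and so did libraries of other subsets with a low short-transcript index. The ratio was 8.30 in Follicular_wt replicate 4 and 8.10 in Follicular_1Mek2 replicate 2. It was 7.35 in MarginalZone_wt replicate 2 and 9.16 in ABC_1Mek2 replicate 3. The Follicular groups reached 21.7 in wt and 26.6 in 1Mek2. The members of complex II behaved differently from one another. Sdhb (chromosome 4, 140688582 to 140706509, GRCm39) averaged 795 ± 129 TPM in Immature_wt and 749 ± 32.1 in Follicular_wt, whereas Sdhd (chromosome 9, 50507640 to 50515149), a membrane anchor, averaged 214 ± 39.8 and 54.7 ± 33.5 there. Sdhd was at 0.711, 1.01 and 13.8 TPM in ABC_wt and at 7.33, 204.1 and 10.8 in MarginalZone_1Mek2.

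**Figure D2:**
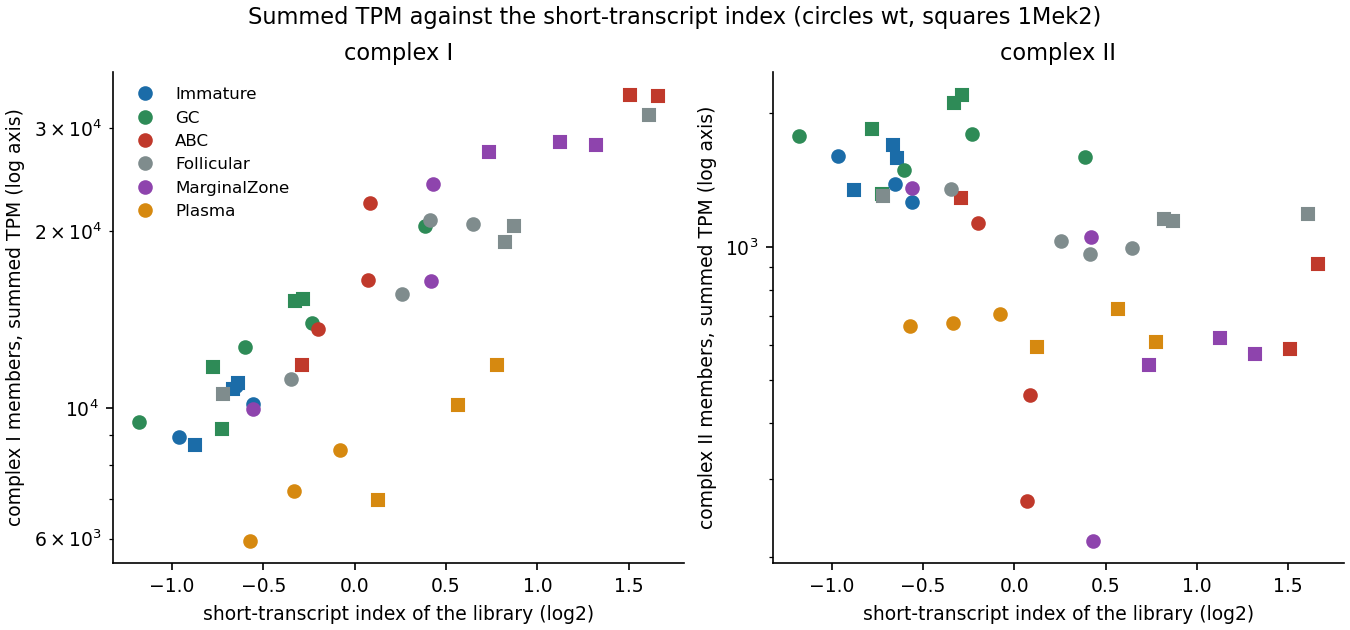
Summed TPM of complex I and of complex II members (log axes) against the short-transcript index of each library; circles are wt, squares 1Mek2. Complex I sums are higher in libraries with a higher index, up to 34195 TPM, while complex II sums, 218 to 2205 TPM, are not; the 3 Plasma_wt libraries (5954 to 8489) lie low in complex I.

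The design asks how B cells differ when Mek1 is deleted and 1 copy of Mek2 is missing; both encode kinases that activate ERK. Averaged over the 6 subsets (limma voom, mouse as a random block, Benjamini-Hochberg adjustment over all genes), nuclear oxidative phosphorylation genes were higher in the libraries labelled 1Mek2. Of 93 members that passed the filter on low counts, 49 were called higher and 0 lower, beside 4.63% of all 25181 tested genes called higher and 1.36% lower. In all, 68 members had an unadjusted p under 0.05. The median log2 difference of tested members was 0.87, against -0.12 over all genes, and 89 of 93 were above 0. The share of all genes called higher was larger at higher levels: 12.8% of genes at a mean of 50 to below 200 CPM, where 28 of 52 members were called, and 19.8% at 200 CPM and over, where 21 of 29 were.

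Complex I held 21 called members of 37 tested, with a median log2 difference of 0.96. NADH is oxidised by its N module, and electrons then pass along iron-sulphur clusters. Ndufv1 (chromosome 19, 4057499 to 4062755), the NADH-binding subunit, was higher by a log2 difference of 1.70 ± 0.33 (SE; adjusted p = 0.000963). Ndufs8 (chromosome 19, 3958863 to 3962774), an iron-sulphur subunit of the arm that reaches ubiquinone, was higher by 1.60 ± 0.27 (adjusted p = 0.000164). Ndufb9 (chromosome 15, 58805650 to 58811365), an accessory subunit of the membrane arm, was higher by 1.65 ± 0.27 (adjusted p = 8.14e-05). Core subunits of the same arms did not pass: Ndufs1 differed by -0.03 ± 0.24 and Ndufv2 by 0.32 ± 0.19. Of the 8 assembly factors only Ndufaf3 was called, with 1.80 ± 0.38 (adjusted p = 0.0023).

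Ndufb9 shows how this average was made up. In Plasma it was at 131, 175 and 175 CPM in wt and 456, 521 and 525.9 in 1Mek2, without overlap. In ABC it was at 0.551, 0.342 and 39.0 CPM against 236, 149 and 117, with the lowest values in the libraries in which many genes were near 0. In GC it was at 61.3, 134, 148 and 214 against 131, 120, 225 and 214, and the groups overlapped. The 4 Follicular_wt libraries were at 160, 169, 147 and 144 and the 1Mek2 libraries at 530, 167, 235 and 244, so 1 library carried most of that difference. Immature libraries were at 119, 70.3 and 82.5 against 128, 152 and 131, and MarginalZone libraries at 100.3, 139 and 118 against 157, 113 and 264.

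In complex II only Sdhb was called among 4 tested (0.93 ± 0.24, adjusted p = 0.0138). Its flavoprotein partner Sdha differed by 0.06 ± 0.22, and the anchors Sdhc and Sdhd by 0.10 ± 0.39 and 0.88 ± 0.39. In complex III 6 of 9 were called, among them Cyc1 (chromosome 15, 76227711 to 76230460), the cytochrome c1 that hands electrons to cytochrome c, with 1.53 ± 0.27 (adjusted p = 0.000268), and Uqcrq, with 1.43 ± 0.32. The Rieske subunit Uqcrfs1 (0.82 ± 0.36) and the core subunit Uqcrc2 (0.31 ± 0.35) did not pass.

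In complex IV 10 of 17 tested members were called. These were Cox4i1 (1.24 ± 0.25), Cox5a (0.80 ± 0.21), Cox5b (1.36 ± 0.28), Cox6a1, Cox6b1, Cox6c, Cox7a2, Cox7b (1.37 ± 0.27), Cox8a and Ndufa4 (0.76 ± 0.22), a subunit first assigned to complex I. Cox7c was not called (0.24 ± 0.28), nor was Cox7a2l (0.74 ± 0.27), which joins complexes III and IV into supercomplexes. In complex V 10 of 18 were called. The largest was Atp5f1d (1.44 ± 0.32, adjusted p = 0.00325), a subunit of the central stalk, followed by Atp5po (1.37 ± 0.25, adjusted p = 0.00046), which connects the catalytic head to the peripheral stalk. Atp5if1, the inhibitor of the enzyme, was higher by 1.18 ± 0.33. The catalytic subunits Atp5f1a (0.67 ± 0.31) and Atp5f1b (0.84 ± 0.28) did not pass.

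Of the genes of the pathway outside these families, none of 11 tested subunits encoded in mitochondrial DNA was called (median log2 difference -0.01, range -0.55 for ND6 to 0.31 for CYTB). Other assembly factors were called higher in 11 of 38, among them Surf1, Sdhaf1, Atpaf2 and Uqcc2. Carriers were called in 4 of 9 (Cycs, which is cytochrome c, Slc25a4, Higd1a and Higd2a) and citrate cycle enzymes in 2 of 10 (Mdh2 and Idh3g). Of 10 transcriptional regulators of the pathway, none was called. None of these lists held a gene called lower.

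Other measures moved with the label in the same fit. The B cell markers Cd79a and Cd79b (log2 differences 1.04 and 1.06) and 5 of 7 neutrophil markers were called higher. So were 2 of 6 macrophage, 1 of 4 Plasma, 1 of 6 GC, 1 of 4 ABC, 1 of 8 T cell and 1 of 8 cell cycle markers. Of 4 plasmacytoid dendritic cell markers, Ccr9 was called lower and none higher. Mean Bst2, another of the 4, was higher in 1Mek2 in every subset in CPM of exon reads (603 against 132 in ABC). Of 12 long neuronal genes, 1 was called lower. Ms4a1 was not tested in that fit. Its mean CPM of exon reads was lower in 1Mek2 in Immature (2417 against 3077), GC (2431 against 2988) and Follicular (728 against 950). It was also lower in MarginalZone (473 against 1638) and Plasma (22.7 against 105), and higher in ABC (804 against 189). By this measure Cd79a and Cd79b were lower in Immature_1Mek2, and Cd79b in MarginalZone_1Mek2. Both were higher in GC, ABC, Follicular and Plasma. The mean exon share was higher in 1Mek2 in 5 subsets, for example 43.7% against 80.0% in ABC, and was 63.0% against 62.4% in MarginalZone. The mean short-transcript index was higher in 1Mek2 in ABC (-0.01 against 0.96), Follicular (0.24 against 0.65), MarginalZone (0.10 against 1.06) and Plasma (-0.33 against 0.49), but not in Immature (-0.73 in both) or GC (-0.41 against -0.53). The part of marker genes in the result was not tested. With the exon share as a term 43 members were called higher and 1 lower, and with the short-transcript index as a term 45 higher. Of all genes at 200 CPM and over, 19.8% were called higher without a term, 23.4% with the exon share and 24.5% with the index. At 50 to below 200 CPM these shares were 12.8%, 12.04% and 17.3%. With the exon share term, members in length classes below 1000 exonic bases had medians of 1.119 and 0.925. In the next classes their medians were 0.0696 and 0.338, and in the longest, with 3 members, 0.102. Fewer cells of a type and less RNA per cell cannot be told apart in bulk samples.

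The call rested in part on single mice and subsets. On exon reads alone 28 members were called (4.12% of all genes), without mouse 358 (wt) 24 (2.74%) and without mouse 654 (1Mek2) 29 (3.13%). The mouse of the GC library that shares an animal with the excluded library changed little (51 without it). Without all ABC libraries 35 were called (2.28% of all genes), with a median of 0.72 (all genes -0.05). Among Immature and GC libraries alone 0 were called (1.05% of all genes), while 50 had an unadjusted p under 0.05 with a median of 0.66 (all genes -0.34). In the other 4 subsets alone 31 were called (3.89% of all genes) with a median of 1.04 (all genes 0.05).

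Within single subsets no member was called in any of the 6 genotype comparisons (edgeR quasi-likelihood test, Benjamini-Hochberg adjustment over all genes), where 0.0605% of all genes were called in Plasma, 0.933% in Immature, 0.054% in GC and 0% in ABC, Follicular and MarginalZone. Members with an unadjusted p under 0.05 numbered 55 of 91 tested in Plasma, 36 of 90 in Follicular, 32 of 89 in ABC, 31 of 89 in MarginalZone, 19 of 90 in Immature and 8 of 91 in GC. DESeq2 called 38 in Plasma and 14 in ABC, beside 7.26% and 11.5% of all genes, 1 in MarginalZone and 0 in the others. With limma voom 4 were called in ABC, beside 1.89% of all genes, and 0 elsewhere. The medians of all genes given below are over every exonic length and are not matched to the lengths of members. Members and all genes were also split into classes of exonic length.

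**Figure D3:**
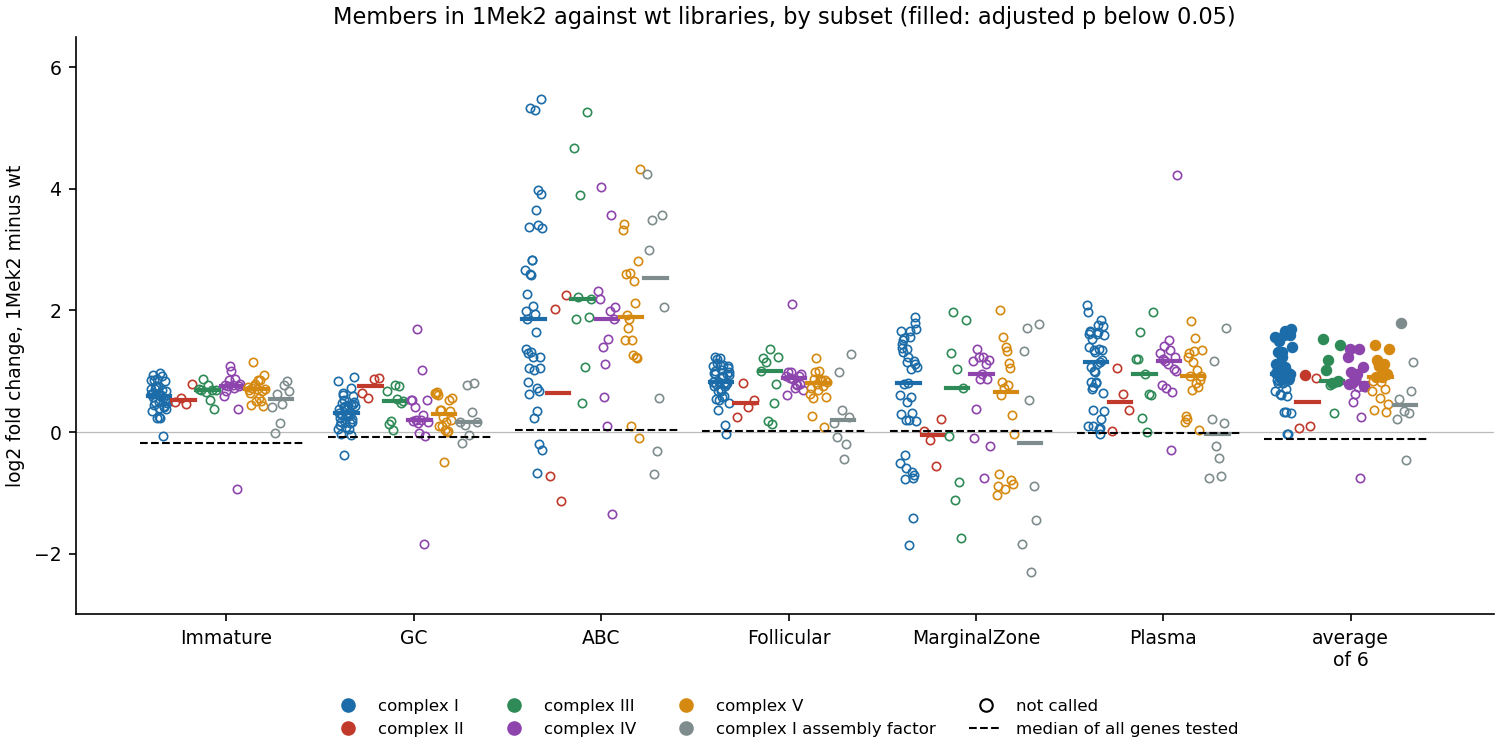
Log2 difference (1Mek2 minus wt) of each tested member in each subset, by complex, and averaged over subsets; filled points were called, short bars are medians per complex and dashed lines medians of all genes tested. Medians over all members are 1.93 in ABC, 1.02 in Plasma, 0.81 in Follicular, 0.73 in MarginalZone, 0.68 in Immature and 0.32 in GC.

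In Plasma, libraries labelled 1Mek2 were above all wt libraries in 63 of 91 tested members, beside 13.2% of all genes, and the median difference was 1.02 (all genes -0.02). Uqcrq (chromosome 11, 53318749 to 53321658), a small subunit of complex III, was at 158, 151 and 158 CPM in wt and at 614, 605 and 624 in 1Mek2. Its log2 difference of 1.98 ± 0.30 had an adjusted p of 0.0577. Ndufa11, a membrane-arm subunit of complex I, was at 78.3, 102 and 123 CPM against 374, 424 and 387, and Ndufb8 at 231, 207 and 265 against 747, 835 and 789. Their adjusted p-values were 0.068 and 0.0684. None of these groups overlapped. Summed T cell markers were 2934 to 7333 CPM in Plasma_wt and 1484 to 2721 in 1Mek2, against 1262 or less in all other groups, and neutrophil markers were 1443 to 8728. The part of these in the result was not tested.

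In MarginalZone 39 members were higher without overlap and 2 lower of 89 (all genes 7.25% and 7.11%), with a median of 0.73 (all genes 0.02). The 2 lower, named after their values were seen, were the complex I subunits Ndufs4 (129, 136 and 117 CPM in wt against 61.9, 87.2 and 84.3) and Ndufb5 (83.4, 92.6 and 51.9 against 22.5, 3.24 and 37.0). Atp5f1d (chromosome 10, 79974451 to 79981662) was at 81.6, 206 and 216 CPM in wt against 621, 571 and 820 in 1Mek2 (2.00 ± 0.49, adjusted p = 0.519). Ndufs8 was at 119, 159 and 169 against 647, 321 and 575. Uqcrq was at 82.3, 209 and 175 against 544, 439 and 679. The groups did not overlap for any of the 3, and the adjusted p was 0.519 for each. Of the 89 members, 60 had a difference above 0. The rise lay mostly in short members. In the length classes below 1000 exonic bases, medians of members were 1.045 and 1.079, and of all genes 0.731 and 0.536. In the next classes they were -0.0918 and -0.038 for members and 0.0295 and -0.0879 for all genes. The longest class, with 3 members, had a median of 0.312 for members.

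In Follicular 16 of 90 were higher without overlap (all genes 4.86%), with a median of 0.81 (all genes 0.02). Cyc1 was at 180, 157, 112 and 174 CPM in wt against 425, 293, 270.04 and 260 in 1Mek2, without overlap (1.00 ± 0.29, adjusted p = 0.42). Ndufa8 was at 65.0, 76.0, 56.0 and 143 against 284, 167, 149 and 149, also without overlap. Uqcrc1, a core subunit of complex III, was at 319, 269.96, 226 and 543 against 1696, 804, 499 and 494, and overlapped.

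In ABC 36 of 89 were higher without overlap (all genes 15.6%), with a median of 1.93 (all genes 0.03). Genes as short as most members were also higher. In the length classes below 1000 exonic bases, medians of all genes were 1.092 and 1.503, and of members 1.861 and 2.401. In the next classes they were 1.366 and 0.5104 for all genes and 1.993 and 1.914 for members. In the longest class, with 3 members, they were -0.716 and -0.679. Atp5po (chromosome 16, 91722111 to 91728518) was at 13.5, 5.40 and 10.3 CPM in wt against 236, 120 and 232 in 1Mek2 (4.33 ± 1.14, adjusted p = 0.128). Ndufv1 was at 0.708, 0.888 and 8.27 against 311, 14.3 and 116, and Ndufs8 at 1.42, 47.5 and 58.2 against 828, 607 and 180. The groups did not overlap for these members. Of the 88 members with a mean of at least 10 TPM, 47 and 30 lay below 0.1 of their own median in ABC_wt replicates 1 and 2, shares of 53.4% and 34.1% where all genes had 49.2% and 37.8%. With exon share as a term the log2 difference of Ndufv1 was -1.05. Leaving out ABC_wt replicates 1 and 2, which leaves 1 wt library, gave a median of 1.90 (all genes 0.56); the lone library is assumed to vary like the 1Mek2 libraries, so the calls of that fit are not read.

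In Immature 37 of 90 were higher without overlap (all genes 6.91%), with a median of 0.68 (all genes -0.17). Atp5if1 was at 57.9, 51.0 and 60.0 CPM in wt against 93.4, 146 and 133 in 1Mek2 (1.14 ± 0.40, adjusted p = 0.193). Cox6c was at 57.7, 68.4 and 93.0 against 120, 149 and 194, and Atp5pf, a stalk subunit of complex V, at 157, 96.1 and 179 against 192, 334 and 301. None of the 3 overlapped. The median was 0.36 on exon reads and 0.17 with the exon share as a term. Markers of other cell states moved with the label without overlap in CPM of exon reads: summed Plasma markers were 510 to 1429 in wt and 3088 to 6913 in 1Mek2, GC markers 242 to 682 and 1314 to 1534, and 8 cell cycle genes 252 to 1135 and 2000.1 to 2320. Their part in the result was not tested.

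In GC only 5 of 91 were higher without overlap (all genes 4.66%), with a median of 0.32 (all genes -0.09). Cox7a2l was at 81.5, 126, 190 and 159 CPM in wt against 223, 356, 272 and 282 in 1Mek2 (1.03 ± 0.33, adjusted p = 0.409). Ndufv1 was at 82.5, 120, 109 and 92.4 against 197, 146, 237 and 179, and Ndufa10, an accessory subunit of complex I, at 75.0, 128, 132 and 105 against 179, 176, 225 and 203. On exon reads the median was -0.06, and without GC_wt replicate 1 it was -0.08. Without GC_wt replicate 4 it was 0.41.

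Whether the genotype difference itself differed between subsets was tested with an interaction term (edgeR, 5 degrees of freedom). It was called for 8 of 93 members, beside 2% of all genes, among them Atp5po (adjusted p = 0.00882), Ndufa8, Ndufaf7, Ndufb6, Uqcrfs1, Ndufs3 and Cyc1 (adjusted p = 0.0498). For Atp5po the log2 differences were 4.33 in ABC, 1.35 in Plasma, 0.83 in Follicular, 0.71 in Immature, 0.56 in GC and -0.03 in MarginalZone, where the libraries were at 179, 194 and 9.94 CPM in wt and 101, 85.5 and 188 in 1Mek2. For Cyc1 they were 4.67 in ABC and -0.06 in MarginalZone. Uqcrfs1 differed by 5.26 in ABC and -1.74 in MarginalZone. No member was called without all ABC libraries or with the exon share as a term. Without mouse 670 22 were called, and without mouse 412, 323, 358, 413, 487, 562, 565, 570 or 634 between 2 and 5. Shares of all genes called are not given for these other settings. Their counts therefore do not tell a change in members from a change in calls over all genes.

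The subsets were then compared in wt. Immature and GC libraries carry another style of name than the other 4 subsets, so their comparisons with Follicular cannot be told apart from that difference, while GC against Immature lies within it. The comparisons with Follicular share the same 4 Follicular_wt libraries. Below, most counts of called members under other sets of libraries or terms are given without the share of all genes called. Such counts do not tell a change in members from a change in calls over all genes. Follicular_wt replicate 4 stood apart from replicates 1 to 3, with an exon share of 87.3% against 61.7% to 64.3% and a short-transcript index of -0.35 against 0.26 to 0.65.

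**Figure D4:**
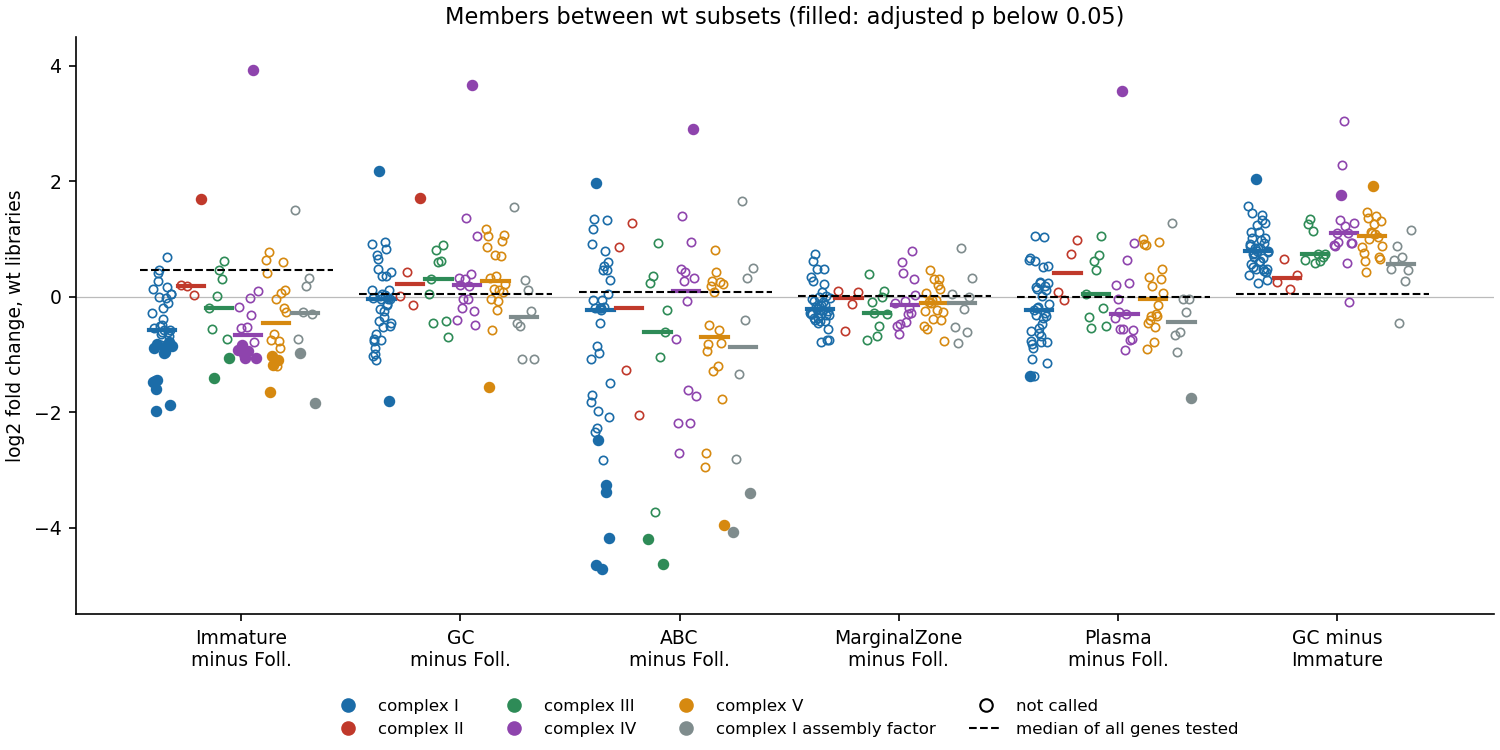
Log2 difference of each tested member in wt for 6 comparisons of subsets, by complex; filled points were called, short bars are medians per complex and dashed lines medians of all genes tested. Medians over all members are -0.53 for Immature, 0.04 for GC, -0.48 for ABC, -0.17 for MarginalZone and -0.19 for Plasma against Follicular, and 0.87 for GC against Immature.

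Against Follicular cells, 27 of 90 tested members were lower in Immature cells and 2 higher, beside 7.15% of all genes lower and 32.3% higher. The median of members was -0.53 where that of all genes was 0.47, a value that moved to 0.30 with DESeq2's scaling (members -0.71). Of the members that fell, 13 belonged to complex I, 2 were assembly factors, 2 were in complex III, 6 in complex IV and 4 in complex V. Ndufs7 (chromosome 10, 80084939 to 80092628), which holds the last iron-sulphur cluster before ubiquinone, was at 118, 80.9 and 99.2 CPM in Immature against 384, 449, 406 and 226 in Follicular (-1.88 ± 0.32, adjusted p = 0.000585). Ndufa5 was at 21.9, 31.6 and 53.2 against 128, 185, 179 and 70.5, and Atp5f1d at 110, 97.4 and 86.7 against 327, 403, 306 and 198. The groups did not overlap, and Follicular_wt replicate 4 was the Follicular library nearest to the Immature ones in all 3.

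The assembly factor Ndufaf8 fell by 1.84 on the log2 scale. Complex IV members fell by 0.83 (Cox6a1) to 1.07 (Cox8a). Sdhd went the other way: it was at 104, 80.9 and 127 CPM in Immature and 18.5, 20.9, 18.1 and 70.9 in Follicular (1.70 ± 0.48, adjusted p = 0.0124). Cox7b2, a testis isoform, was also called (3.93 ± 0.82), but its gene-span counts were 19.7 times its exon reads, which did not exceed 0.841 CPM in these libraries. In the libraries labelled 1Mek2, 34 were lower and 2 higher, beside 12.3% and 18.6% of all genes. The count was 64 (9 higher) without Follicular_wt replicate 4, 18 and 12 without Immature_wt replicates 1 and 2, 6 on exon reads and 13 with the short-transcript index as a term. With that term Ndufs7 differed by -1.15 (adjusted p = 0.057), Ndufa5 by -0.40 and Sdhd by 0.21.

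In GC against Follicular 3 of 90 were higher and 2 lower, beside 14.6% and 10.5% of all genes, and the median was 0.04 for members and for all genes. Ndufb1 (chromosome 12, 101934355 to 101941997), a small subunit of complex I, was at 45.2, 63.2, 114 and 190.1 CPM in GC and 14.6, 33.3, 23.1 and 20.6 in Follicular, without overlap (2.17 ± 0.46, adjusted p = 0.00392). Its interval overlaps that of Cpsf2 on the other strand. Sdhd was again higher (1.70 ± 0.49, adjusted p = 0.0215), and Ndufs7 (-1.81 ± 0.37) and Atp5f1d (-1.56 ± 0.41) again lower. Cox7b2 was called too, with exon reads at 2.19, 0, 0 and 0.233 CPM in GC and 0 in every Follicular library. The count was 24 without Follicular_wt replicate 4, 9 without GC_wt replicate 3, 8 without Follicular_wt replicate 1 and 4 without GC_wt replicate 4, and 16 (14 lower) among libraries labelled 1Mek2, where 30.9% of all genes were called.

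GC against Immature, within 1 style of name, had 89 of 91 tested members above 0 and a median of 0.87 (all genes 0.04). Only 3 were called, beside 1.94% of all genes called higher. Ndufb1 was at 21.5, 25.6 and 37.1 CPM in Immature and 46.6, 84.7, 174 and 158 in GC, without overlap (2.04 ± 0.54, adjusted p = 0.00979). Atp5me, a subunit of the membrane part of complex V, was at 14.3, 21.1 and 54.1 against 27.4, 88.0, 165 and 169, and Cox6c at 51.9, 70.7 and 87.3 against 82.3, 198, 389 and 279; both overlapped. In 1Mek2 the median was 0.49 and 0 were called. The count was 0 without GC_wt replicate 3 or 4 or Immature_wt replicate 1 or 2, and 1 without GC_wt replicate 2 or Immature_wt replicate 3. Libraries of the 3 mice that gave both subsets did not deviate together (correlations -0.36 to 0.10), and with the mouse as a block 1 was called.

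In ABC against Follicular 2 of 90 were higher and 11 lower, beside 11.9% and 8.3% of all genes. The median was -0.48 (all genes 0.08). It was -0.23 (all genes 0.32) with DESeq2's scaling and 0.17 (all genes -0.06) on exon reads. In the length classes below 1000 exonic bases, medians of all genes were -0.213 and -1.097, and of members 0.265 and -0.856. In the next classes they were -1.128 and -0.391 for all genes and -1.155 and -0.835 for members. In the longest class, with 3 members, they were 0.811 and 0.784. Cyc1 was at 1.04, 1.55 and 17.3 CPM in ABC against 141, 122, 88.4 and 139 in Follicular (-4.20 ± 1.13, adjusted p = 0.0285). Uqcrfs1 was at 0.949, 0.431 and 5.26 against 27.0, 24.7, 16.5 and 154, Ndufa8 at 0.095, 4.06 and 3.90 against 51.1, 59.2, 44.3 and 114.0, and Ndufb6 at 0.190, 0.690 and 5.46 against 45.8, 50.6, 43.7 and 84.8. These groups did not overlap. Cox7c (chromosome 13, 86192917 to 86194914), a small subunit of complex IV, went the other way, at 1369, 782 and 465.9 against 89.9, 158, 138 and 82.3 (2.90 ± 0.51, adjusted p = 0.00551). Ndufa7 did too, at 913, 766 and 898 against 159, 301, 306 and 115. A snoRNA gene lies within the interval of Cox7c. Among libraries labelled 1Mek2, and with the exon share as a term, 0 were called. Without any 1 of the Follicular_wt replicates 2 or 3 were called, without ABC_wt replicate 2 8 and without ABC_wt replicate 3 27. With the mouse as a block 6 were called.

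In MarginalZone against Follicular 0 of 90 members were called (edgeR; 0 with an unadjusted p under 0.05, and 0 by DESeq2 and by limma voom), beside 0.34% of all genes. The median was -0.17 (all genes 0.02). Ndufs8 was at 131, 183 and 205 CPM in MarginalZone and 240, 296, 258 and 230 in Follicular, without overlap (-0.56 ± 0.32, adjusted p = 0.676), and the difference was 0.18 among libraries labelled 1Mek2.

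In Plasma against Follicular 1 of 91 was higher and 2 lower, beside 12.2% and 5.53% of all genes, with a median of -0.19 (all genes -0.01). Ndufaf8 was at 38.2, 40.1 and 49.2 CPM in Plasma and 108, 206, 186 and 72.3 in Follicular (-1.75 ± 0.41, adjusted p = 0.0173). Ndufa11 was at 81.9, 111 and 131 against 236, 384, 360 and 144 (-1.38 ± 0.40, adjusted p = 0.0415). Cox6b2, a testis isoform of COX6B, was at 1.07, 2.51 and 3.38 against 0.0392, 0.187, 0.415 and 0.127 (3.55 ± 0.96, adjusted p = 0.0307). No group overlapped. The count was 31 (18 higher) without Follicular_wt replicate 4, 0 without replicate 2, 1 without replicate 1 or 3 or Plasma_wt replicate 3, and 0 with the short-transcript index as a term.

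Several complex IV subunits have isoforms tied to tissue. The forms found in most tissues, Cox4i1, Cox6a1, Cox6b1, Cox7a2 and Cox8a, were abundant, whereas Cox4i2, Cox6b2, Cox7a1, Cox7b2, Cox8b, Cox8c and Ndufa4l2 had a mean below 10 TPM. Cox6b2 reached 106 TPM in MarginalZone_wt replicate 3 and 37.6 in ABC_wt replicate 3. Cox4i2 reached 14.1 in GC_wt replicate 2. Other members below 10 TPM were Ndufa11b, Ndufb11b, Ndufb4c, Ndufs6b, Ndufaf5 and Ndufaf6. Cox6c2 is in the count table only.

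Cox6a2 (chromosome 7, 127804607 to 127805538), the heart and skeletal muscle isoform, was the exception, and only exon reads show it. Its gene-span count was 0 in every library, and its interval lies within that of Itgad, as those of Ndufb4b, Ndufb4c and Ndufs6b lie within Dock8, Mroh5 and Slc28a1. In exon reads Cox6a2 was at 335, 437 and 433 CPM in ABC_wt. In ABC_1Mek2 it was at 1609, 869 and 1.14 CPM, so 1 of the 3 libraries lacked the signal. Immature libraries were at 4.39 to 33.0, Plasma at 2.76 to 10.1 and GC, Follicular and MarginalZone at 0 to 13.6. Cox6a1, the form of most tissues, was at 240 to 404 in ABC_wt and 969, 1050 and 310 in ABC_1Mek2. Summed markers of plasmacytoid dendritic cells (Siglech, Bst2, Ccr9 and Klk1) were 2412 to 3332 CPM in ABC_wt and 3220, 860 and 52.7 in ABC_1Mek2, in the same order of libraries as Cox6a2, and at most 319 elsewhere. Summed muscle markers were at most 20.9 CPM, in ABC_1Mek2 replicate 1, which also had the highest Cox6a2. There Actn2 was at 20.7 CPM. In ABC_wt Actn2 was at 0 to 0.127 CPM, and Myh7, Myh6, Tnnt2 and Ckm were at 0 in all libraries. The part of these cells in the signal was not tested.

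**Figure D5:**
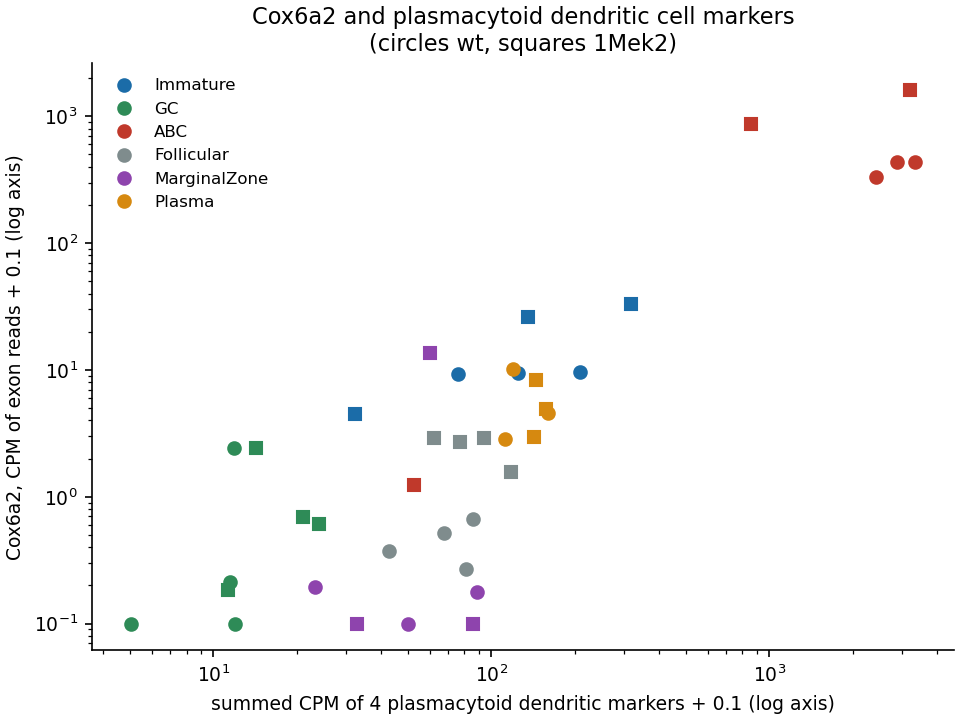
Cox6a2 in CPM of exon reads against the summed CPM of 4 plasmacytoid dendritic cell markers (log axes, 0.1 added); circles are wt, squares 1Mek2. The 3 ABC_wt libraries (335 to 437 CPM) and 2 ABC_1Mek2 libraries (869 and 1609) stand apart from the rest.

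Counting also affected other members. Of the 102, 34 overlap another gene, and 6 had gene-span counts below 80% of their exon reads: the 4 above, Cox4i2, and Cox7a2, whose ratio was 0.55.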

How the data were processed

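Per the submitters' processing notes, reads were processed with Trim Galore 0.6.5, STAR 2.7.11a and featureCounts 2.0.3 on GRCm39. The authors deposited raw counts per gene and TPM. For 50760 of 50763 genes the counted length equals the interval from gene start to gene end, so counts include introns; the treatment of reads shared by overlapping genes is not given in the sources used here. Exon reads were recovered from the deposited TPM values (100% of values below 1000 reads whole within 0.02). Gene names and GRCm39 coordinates are those of the count table.

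Single comparisons used edgeR 4.0.16 in R 4.3.3 (TMM, filterByExpr, robust quasi-likelihood test). The average genotype effect used limma 3.58.1 voom with the mouse as a random block (consensus correlation 0.07), since mice gave several libraries, and the interaction used edgeR over all 12 groups. Tests were two-sided and adjusted over all tested genes (Benjamini-Hochberg, 0.05). Values given as CPM are TMM-scaled gene-span counts within a comparison unless exon reads are named, in which case they are scaled to the exon reads of the library. Reads carry no molecular identifiers, so depth covers counting error only. DESeq2 1.42.0 was an alternative. Sets of libraries, covariate terms and exon reads tried as alternatives are in the closing section, some chosen after seeing the data.

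The members and gene lists were chosen with earlier results of these data known. Named members were the 4 largest called differences in each direction at a mean of at least 5 CPM, up to 5 called against the majority, the 2 most abundant per complex, the isoform and regulatory members, the 3 smallest p-values where none was called, and those at 0 in every count column. Further members were named after their values were seen: Cox7b, Ndufs4 and Ndufb5 in MarginalZone, and as contrasts Ndufs1, Ndufv2, Uqcrfs1, Uqcrc2, Cox5a, Cox5b, Atp5f1a and Atp5f1b. Counts of members are over all of them, but some members and markers are not reported here by name.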

Additional observations from a re-analysis of the deposited data

Results flagged for a closer look

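Among 158 groups of 4 libraries examined, 12 held a library far from the other 3 by Dixon's criterion, which chance gives in about 1 of 20 groups. In Follicular_wt, replicate 4 was the outlying library in all 6 of these. The complex II sum was highest there at 1351 TPM (the others 965 to 1029), as were Sdhd at 105 TPM (35.2 to 39.4), Ndufa8 at 420 TPM (250.1 to 277) and Uqcrfs1 at 342 TPM (55.7 to 86.6). Ndufb9 was lowest at 466.1 TPM (667 to 707) and Atp5f1d at 188 TPM (433 to 476).

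In GC_wt, Atp5f1d was highest at 230 TPM (101 to 115), Cox7b2 at 9.96 TPM (0 to 0.801) and Ndufs3 at 351 TPM (225 to 243), and Uqcrc1 was lowest at 673 TPM (1044 to 1059). In GC_1Mek2, Cox7a2l was highest at 696 TPM (440.2 to 457). In Follicular_1Mek2, Ndufaf7 was highest at 38.7 TPM (23.8 to 25.9).

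The genotype difference differed between the 6 subsets by the edgeR interaction test for 8 members, among them with adjusted p-values of 0.00882 for Atp5po, 0.0115 for Ndufa8, 0.019 for Ndufaf7, 0.0212 for Ndufb6, 0.0326 for Uqcrfs1, 0.0456 for Ndufs3 and 0.0498 for Cyc1. None was called without all ABC libraries, given here without the share of all genes called in that setting.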

How the results depend on the processing

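Numbers of called members are given, here without the share of all genes called under each setting. They do not tell a change in members from a change in calls over all genes. Within single subsets, where none was called, leaving out the low-count filter gave 3 in ABC, 5 in MarginalZone and 16 in Plasma, DESeq2 gave 14, 1 and 38, and limma voom 4 in ABC; in Plasma an exon share term gave 21 and a short-transcript index term 12. Leaving out each library gave 0 in all 6. For the average of 49, exon reads gave 28, Immature and GC alone 0, the other 4 subsets 31, and leaving out each mouse 24 to 57. For the interaction (8), leaving out all ABC libraries or adding the exon share gave 0, as did leaving out ABC_wt replicates 1 and 2, where 1 ABC_wt library is left and is assumed to vary like the other groups, and leaving out each mouse 2 to 22.

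For Immature against Follicular (29), no filter gave 53, DESeq2 45, exon reads 6, the index term 13 and leaving out each library 12 to 64. For GC against Follicular (5), no filter gave 17, voom, exon share and index terms 8 each, 1Mek2 libraries 16 and leaving out each library 4 to 24. For ABC against Follicular (13), DESeq2 gave 20, voom 23, the exon share term and 1Mek2 libraries 0 each, the index term 6 and leaving out each library 2 to 27. MarginalZone gave 1 in 1Mek2 libraries. For Plasma against Follicular (3), DESeq2 gave 7, exon reads 6, the exon share term 1, the index term 0 and leaving out each library 0 to 31. For GC against Immature (3), DESeq2's scaling, no filter, the index term and 1Mek2 libraries gave 0, and DESeq2, voom and exon reads 1; leaving out each library gave 0 to 3.

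Libraries with the same replicate number come from different mice across genotypes, and their deviations correlated at -0.54 to 0.43, so the number was not taken as a pairing; as a block it gave 3 called members in Immature and 0 in the other subsets. With the mouse as a block, ABC against Follicular gave 6 (correlations -0.04 to 0.08), GC against Immature 1, MarginalZone against Follicular 0 and the interaction 15 by voom; without the block the average gave 58. No paired analysis was possible for Plasma against Follicular because only 1 mouse gave both.

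Of 770 values of named members under alternatives, 633 kept direction and side of the threshold, 114 lost and 20 gained a call, and 3 changed sign: Ndufv1 in ABC with the exon share term (-1.05), and in 1Mek2 libraries Uqcrfs1 in ABC against Follicular (0.0045) and Ndufs8 in MarginalZone against Follicular (0.18). The causes were not tested. The index terms, the sets of ABC libraries left out, the split by style of library name and, for the average and the interaction, the exon share term were chosen after seeing the data.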
